A study of Mus musculus with 22 samples.

Results

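The 10 genes described here carry glucose into brain cells and break it down to lactate, and were followed in whole mouse brain at embryonic day 15 (E15) and postnatal day 1 (P1). They were Slc2a3, Hk1, Hk2, Pfkp, Aldoa, Pgk1, Eno1, Eno2, Ldha and Ldhb. Members were found through the gene name written beside each probe in the E15 scanner files, where Ldha stood as Ldh1 and Ldhb as Ldh2. This gave 10 genes with 23 probes, out of 21001 gene symbols and 41174 probes on the array. The animals were mice labelled knockout for Agtr2, the gene of the type 2 angiotensin II receptor, and control mice, with no strain, sex or further allele given. The E15 part had 8 knockout and 6 control animals on 14 arrays, and the P1 part 4 of each on 8 arrays. Each dual-colour array carried RNA of 1 knockout and 1 control animal, and E15 replicates 3 and 4 had 1 dye orientation. A P1 control is called by the number of the knockout replicate on its arrays. Frozen slices of the whole organ gave the RNA.

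Glycolysis splits glucose into pyruvate in the cytosol. Slc2a3 is the glucose transporter of neurons, and Slc2a1 that of the blood-brain barrier and many other cells. Hexokinases trap glucose as glucose 6-phosphate, phosphofructokinases make the committed step, and aldolase, phosphoglycerate kinase and enolase carry the sugar on to phosphoenolpyruvate. Lactate dehydrogenase interconverts pyruvate and lactate. Most steps have several isoforms: enolase 2 is the neuronal form and enolase 1 the widespread one, and Ldhb-rich and Ldha-rich lactate dehydrogenase are classically tied to lactate use and lactate production.

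Of spots on an array, 74.9% to 89.3% were well above background at E15 and 71.3% to 89.5% at P1, and the number of animals limits the precision. The E15 arrays were scanned on 3 days and the P1 arrays on 1 other day with another version of the scanner software, so age and scan cannot be told apart. Agtr2 itself had a knockout over control change of -0.40 at E15 (SE 0.30, limma adjusted p = 0.770) and 0.11 at P1 (SE 0.08, adjusted p = 0.715). Its log2 signal at P1 was low in both groups, 6.09 to 6.24 in controls and 6.05 to 6.39 in animals labelled knockout, so a loss could hardly be seen there. At E15 the controls ran from 6.1 to 9.1 and the animals labelled knockout from 6.2 to 7.1, with ratios per replicate from -2.10 to 0.87. It is not known whether this probe reads the deleted part of the gene, and the labels are therefore not checked by it. Genes of skeletal muscle, a tissue outside the brain, had a median log2 signal over 16 genes of 11.27 in E15 control 1, 8.60 in control 2, 8.15 in control 5 and 6.50 to 6.92 in the other E15 controls. In P1 controls, where 12 to 16 of these genes had a value, the range was 6.54 to 6.86. Genes of meninges and fibroblasts were also highest in E15 control 1, at 9.79 against 7.81 to 8.49 in the other E15 controls. Among the E15 animals labelled knockout, replicate 8 (10.11) and replicate 4 (8.28) were highest in the muscle genes. In a whole brain, fewer cells of a type and less RNA per cell cannot be told apart.

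The promoters of 4 members are shown because Pfkp and Eno2 were the enzymes that rose most with age, while Ldha and Hk2 had the most negative values. RefSeq's table (GRCm38.p6) held 15 entries for 9 of the 10 members, and the 250 bases before the first listed start are printed 5′ to 3′. Capitals mark ACGTG or GCGTG on either strand, the core letters of the hypoxia response element, and CACGTG holds 2 overlapping matches. The windows are chr13:6648772-6649021 (minus strand), chr6:124769674-124769923 (minus), chr7:46845554-46845803 (plus) and chr6:82774455-82774704 (minus).
Pfkp: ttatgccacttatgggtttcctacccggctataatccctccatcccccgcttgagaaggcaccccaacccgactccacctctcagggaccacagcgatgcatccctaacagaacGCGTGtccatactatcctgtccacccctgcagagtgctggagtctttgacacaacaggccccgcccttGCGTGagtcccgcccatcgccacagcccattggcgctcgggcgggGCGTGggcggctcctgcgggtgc
Eno2: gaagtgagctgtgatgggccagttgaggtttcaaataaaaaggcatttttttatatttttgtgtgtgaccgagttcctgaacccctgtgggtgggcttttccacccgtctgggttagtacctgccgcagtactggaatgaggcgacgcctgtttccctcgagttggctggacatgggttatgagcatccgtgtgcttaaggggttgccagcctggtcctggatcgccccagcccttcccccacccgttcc
Ldha: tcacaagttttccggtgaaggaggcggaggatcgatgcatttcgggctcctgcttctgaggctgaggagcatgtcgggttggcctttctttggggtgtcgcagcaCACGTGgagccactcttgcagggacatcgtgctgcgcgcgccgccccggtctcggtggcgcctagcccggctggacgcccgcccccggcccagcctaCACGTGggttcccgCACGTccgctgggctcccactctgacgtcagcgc
Hk2: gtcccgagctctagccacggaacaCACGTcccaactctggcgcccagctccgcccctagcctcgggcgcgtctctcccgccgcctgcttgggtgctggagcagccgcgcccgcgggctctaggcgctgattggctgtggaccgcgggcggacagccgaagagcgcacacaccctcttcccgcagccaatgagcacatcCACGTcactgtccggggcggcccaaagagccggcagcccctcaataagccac
The Ldha window held 5 matches, Pfkp 3, Hk2 2 and Eno2 0. Of all 32851 promoter windows of this length, 38.6% held at least 1 match. A match is a description of letters only.

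Between E15 and P1, 4 of the 10 genes rose in control brains and none passed the threshold downward. By the brightest probe of each gene, Pfkp rose 3.78-fold, Slc2a3 2.26-fold, Eno2 2.26-fold and Hk1 1.61-fold. Over all 25484 features tested, 33.3% were called, 17.0% higher and 16.3% lower, at a Benjamini-Hochberg adjusted p under 0.05 in limma. The median change of the 10 members was 0.36, beside -0.03 over all features. Values below are log2 signals of normalized channels, 1 probe per gene. They are compared between ages, and between probes only to describe how a probe was chosen.

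**Figure D1:**
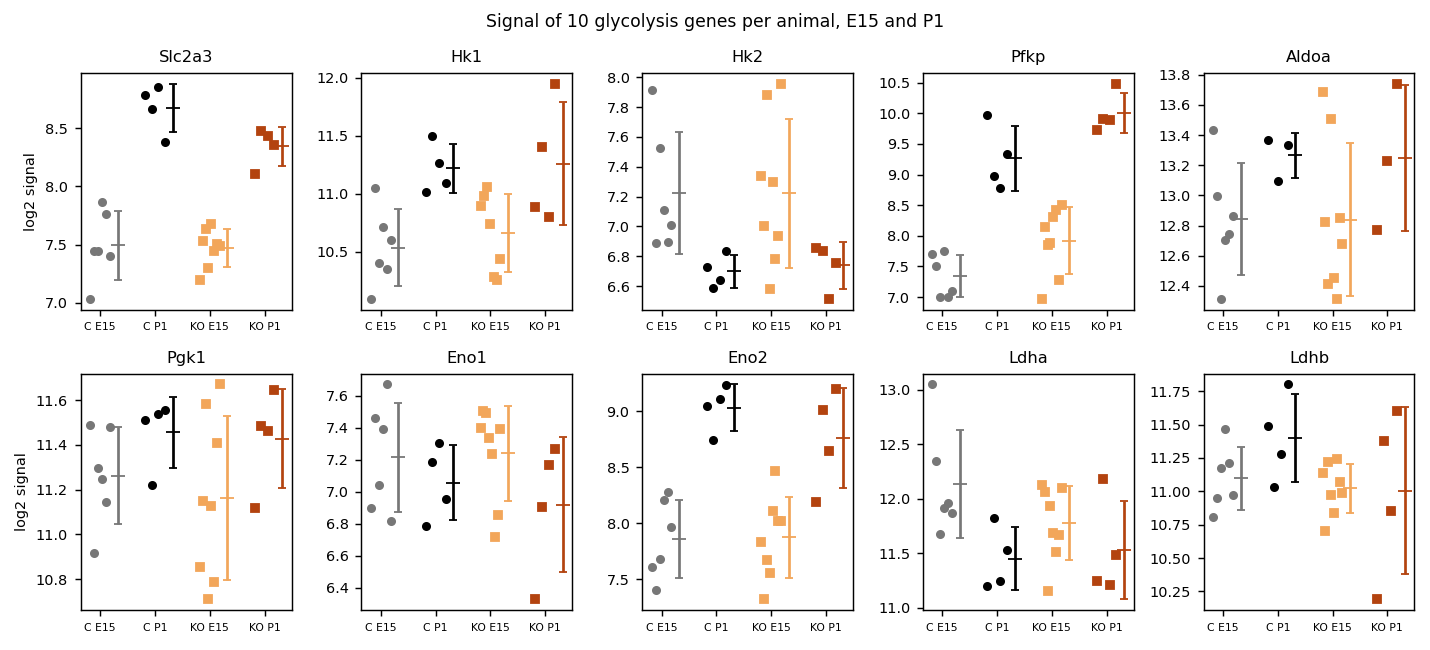
Log2 signal (y axis) of each of the 10 genes in every animal, for control (C) and knockout-labelled (KO) brains at E15 and P1; points are animals, and bars give the mean and SD. In controls, Pfkp, Slc2a3 and Eno2 lie higher at P1 than at E15 and Hk2 lower, with no overlap, while Hk1, Aldoa, Pgk1, Eno1, Ldha and Ldhb overlap. The share of all features without overlap was not counted.

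The glucose transporters Slc2a3 and Slc2a1 moved in opposite directions. Slc2a3 had log2 signals of 7.03, 7.45, 7.45, 7.87, 7.76 and 7.40 in E15 controls 1 to 6, and the P1 controls lay at 8.78, 8.67, 8.85 and 8.38. The ages did not overlap. Its change was 1.18 (SE 0.16, adjusted p = 0.000279), and 0.87 (SE 0.10, adjusted p = 5.67e-05) in animals labelled knockout. Slc2a1, its partner, fell by 1.31 (SE 0.11) in controls and by 1.36 (SE 0.15) in animals labelled knockout. A second probe named Slc2a3 is placed on chromosome 17, away from the gene on chromosome 6, and had a change of -0.10 (SE 0.09).

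Hexokinase was read by Hk1, the main form of the brain, and Hk2. Hk1 read 10.09, 11.05, 10.40, 10.71, 10.35 and 10.60 in the E15 controls and 11.02, 11.50, 11.26 and 11.09 in the P1 controls. Only E15 control 2 reached into the P1 range. The change was 0.68 (SE 0.17, adjusted p = 0.0110), and in animals labelled knockout 0.59 (SE 0.23, adjusted p = 0.0860), which did not pass. The latter was called with outlier spots kept (0.59, adjusted p = 0.0401) and in Cy3 channels alone (0.68, adjusted p = 0.0104). Over all 23 alternatives it ran from 0.17 to 0.75, with an adjusted p of 0.0104 to 0.509. With channels scaled to their own median and no quantile step, the control change was 0.27 (adjusted p = 0.461), and with scan day as a random block it was 0.68 (adjusted p = 0.151).

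Hk2, the insulin- and hypoxia-responsive hexokinase, read 7.91 in E15 control 1 and 6.89 to 7.52 in the other E15 controls. The P1 controls lay at 6.73, 6.59, 6.64 and 6.84, below every E15 control. Its change of -0.53 (SE 0.19) missed the threshold, with an adjusted p = 0.0550. With scanner processed signals it was -0.90 (adjusted p = 0.0301) and with a normexp background offset of 16 in place of 50 -0.71 (adjusted p = 0.0303). It was also called with outlier spots kept, a strict filter (well above background in every channel), median scaling or Cy3 channels alone. Without E15 control 1, the animal highest in muscle genes, it was -0.39 (adjusted p = 0.0398). Without E15 control 2 it was -0.59 (adjusted p = 0.0413), without E15 control 5 -0.59 (adjusted p = 0.0431) and without the 3 controls highest in muscle genes -0.52 (adjusted p = 0.0198), an alternative chosen after seeing the data. In the alternatives not named here it was not called. Over all 22 alternatives its change ran from -0.90 to -0.34 and its adjusted p from 0.0126 to 0.377. The share of muscle RNA in the main value was not tested.

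Pfkp, the platelet-type phosphofructokinase, showed the largest rise of the 10 genes by its brightest probe. Its signals were 7.70, 7.51, 7.01, 7.75, 7.00 and 7.10 at E15 and 9.97, 8.98, 8.77 and 9.33 at P1. All 4 P1 controls lay above all 6 E15 controls. The change was 1.92 (SE 0.24, adjusted p = 0.000196), and 2.08 (SE 0.27, adjusted p = 0.000171) in animals labelled knockout. Its control mean was above that of a second Pfkp probe at P1 (9.26 against 8.64) but not at E15 (7.34 against 7.36). The choice of the brightest probe may therefore have favoured the rise, and the other Pfkp probes had changes of 1.28 and 0.21. Pfkm, the muscle-type isoform, had 0.43 in controls and was not called.

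The brightest probes of the middle steps showed no called change. Aldoa, the aldolase of muscle and developing brain, read 12.31 to 13.43 (median 12.81) at E15 and 13.09 to 13.37 at P1, where 1 of the 4 controls had no usable spot. The change was 0.42 (SE 0.20, adjusted p = 0.136), and it was 0.54 without E15 control 1 (adjusted p = 0.0203) and 0.64 without the 3 controls highest in muscle genes (adjusted p = 0.0205). With the median over all probes of a gene it was 0.54 (adjusted p = 0.0187). Pgk1, which makes the first ATP of the pathway, had 0.19 (SE 0.12, adjusted p = 0.238). Both turned sign when channels were scaled to their median only, Aldoa to -0.41 and Pgk1 to -0.41.

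Enolase, the step before pyruvate kinase, changed in its neuronal form. Eno2 had signals of 7.61, 7.41, 7.68, 8.21, 8.27 and 7.97 at E15 and of 9.04, 8.74, 9.11 and 9.23 at P1. There was no overlap, and the change was 1.17 (SE 0.18, adjusted p = 0.000621). In animals labelled knockout it was 0.89 (SE 0.22, adjusted p = 0.0106), but 0.86 (adjusted p = 0.0733) with scan day as a random block and 0.61 (adjusted p = 0.0501) with channels scaled to their median only. Eno1 ran from 6.82 to 7.67 at E15 and from 6.78 to 7.30 at P1, with a change of -0.16 (SE 0.18, adjusted p = 0.526). Its probe is dim, and it turned to 0.07 in Cy5 channels alone.

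Lactate dehydrogenase had its 2 subunits on opposite sides of 0. Ldha read 13.05, 12.34, 11.67, 11.91, 11.96 and 11.87 in the E15 controls and 11.19, 11.82, 11.25 and 11.53 at P1. The highest value was that of E15 control 1, which was also highest in the muscle and meninges genes. The change of -0.69 (SE 0.25, adjusted p = 0.0526) missed the threshold. It was -1.25 (adjusted p = 0.00126) with channels scaled to their median only, and it was also called with processed signals, offset 16, the strict filter or Cy3 channels alone. Without E15 control 1 it was -0.50 (adjusted p = 0.0313), without E15 control 3 -0.78 (adjusted p = 0.0381) and without P1 control 2 -0.81 (adjusted p = 0.0479). Without the 3 controls highest in muscle genes it was -0.37 (adjusted p = 0.108), and the part of muscle RNA was not tested. In the alternatives not named here the Ldha change was not called. Over all 22 alternatives it ran from -1.25 to -0.37 and its adjusted p from 0.00126 to 0.305. In animals labelled knockout it was -0.25 (SE 0.21, adjusted p = 0.420). Ldhb, the subunit of lactate-using tissue, had 0.30 (SE 0.16, adjusted p = 0.172) in controls and -0.02 in animals labelled knockout, and the control value became -0.26 with channels scaled to their median only.

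Animals labelled knockout gave the same age contrast on the same arrays, with 3 of the 10 members called higher (Slc2a3, Pfkp, Eno2) and 0 lower, beside 14.1% of 25484 features called higher, 10.2% lower and 24.3% in all. The 2 sets of animals share arrays and scans.

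Several genes were read by more than 1 probe, and the probes did not move alike. The Pfkp probes had changes of 1.92, 1.28 and 0.21 in controls, of which the first and second were called (of all 36315 probes tested, 32.9% were called). The brightest Pfkp probe was designed on a cDNA clone, and the other probes on the RefSeq transcript. The 6 Hk1 probes ran from -0.06 to 2.84, with 3 called. The files place 5 of them on chromosome 10, as the gene is, and give no position for the other. The highest, A_51_P249024, read 6.27 to 6.92 in E15 controls, and at P1 it kept a value in 1 of 4 controls because the scanner software marked its spot as an outlier on 7 of 8 arrays. With those spots kept, its mean was 6.61 ± 0.24 (SD, n = 6) at E15 and 8.80 ± 0.21 (SD, n = 4) at P1. Both Eno2 probes rose, by 1.17 and 1.29, and the second Aldoa probe rose by 0.70 (adjusted p = 0.00764). The second Ldha probe had -0.18 and was not called. A second probe named Eno1, placed on chromosome 2 and away from the gene on chromosome 4, was too dim to be tested. Aldoa, Pgk1, Eno1 and Ldha have near-identical pseudogene copies, and whether their probes read these was not tested.

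**Figure D2:**
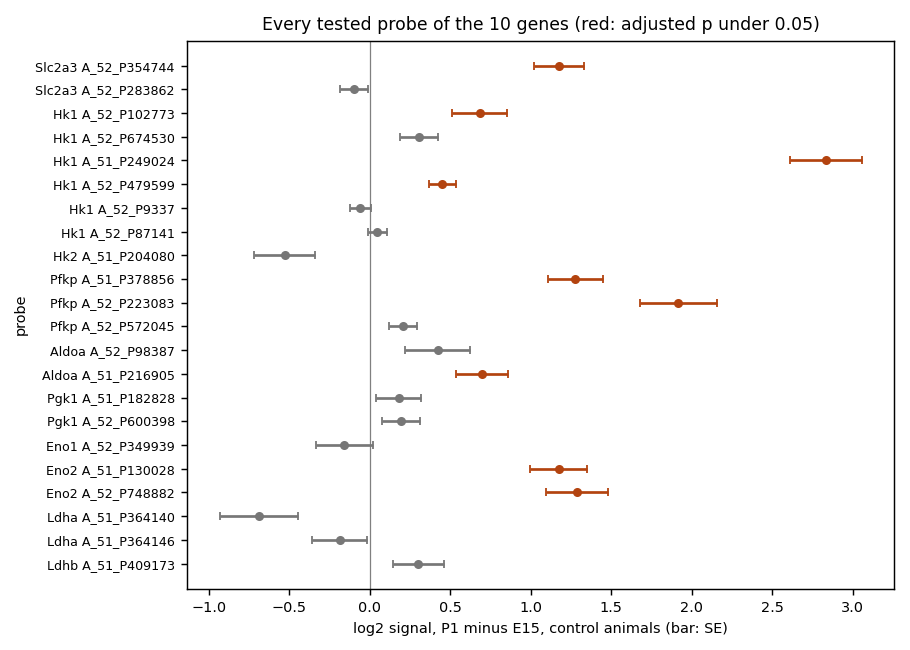
Change of log2 signal from E15 to P1 in control animals (x axis) for every tested probe of the 10 genes (y axis), with SE bars; red marks an adjusted p under 0.05. The Hk1 probes spread from -0.06 to 2.84, whereas both Eno2 probes lie at 1.17 and 1.29.

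Isoform pairs were compared as the log2 ratio of their signals within each animal, so that a scale factor shared by both probes cancels. Of 6 pairs, 4 changed with age in controls by an exact two-sided permutation test adjusted over the 6 pairs. Slc2a3 over Slc2a1 went from -2.79 ± 0.40 (SD, n = 6) to -0.31 ± 0.21 (SD, n = 4), a 5.61-fold shift (exact p = 0.00476, adjusted p = 0.00952), the smallest p that 210 splits allow. Eno2 over Eno1 rose from 0.64 ± 0.39 to 1.97 ± 0.35, by 1.33 (adjusted exact p = 0.00952). Pfkm over Pfkp fell by 1.49, from 1.95 ± 0.49 to 0.47 ± 0.61 (adjusted exact p = 0.00952). That ratio used the Pfkp probe with the largest rise (1.92). The other Pfkp probes rose by 1.28 and 0.21, beside 0.43 for Pfkm, so the size and sign of this shift depend on the probe. Hk2 over Hk1 fell by 1.21, from -3.31 ± 0.69 to -4.52 ± 0.31 (adjusted exact p = 0.0286), and this call was lost without P1 control 2 or 3 and, at -0.86 (adjusted exact p = 0.0667), with median scaling. In Cy5 channels alone the calls of Eno2 over Eno1, Hk2 over Hk1 and Pfkm over Pfkp were lost, each with an adjusted exact p = 0.0629. None of these 4 pairs overlapped between the ages. Since the members and pairs were chosen with age results known, these p-values are not independent evidence.

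Ldhb over Ldha had a change of 0.99, from -1.04 ± 0.68 to -0.05 ± 0.51 (adjusted exact p = 0.0514), and it was 0.56 without the 3 controls highest in muscle genes. Aldoc over Aldoa had 0.72 (adjusted exact p = 0.167, with 3 P1 animals). Aldoc, the aldolase of astrocytes, rose by 1.09 (SE 0.26, adjusted p = 0.00879). In animals labelled knockout, where no test was made, the shifts were 2.23 for Slc2a3 over Slc2a1, 1.21 for Eno2 over Eno1, -1.72 for Pfkm over Pfkp, -0.98 for Hk2 over Hk1, 1.02 for Aldoc over Aldoa and 0.24 for Ldhb over Ldha.

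**Figure D3:**
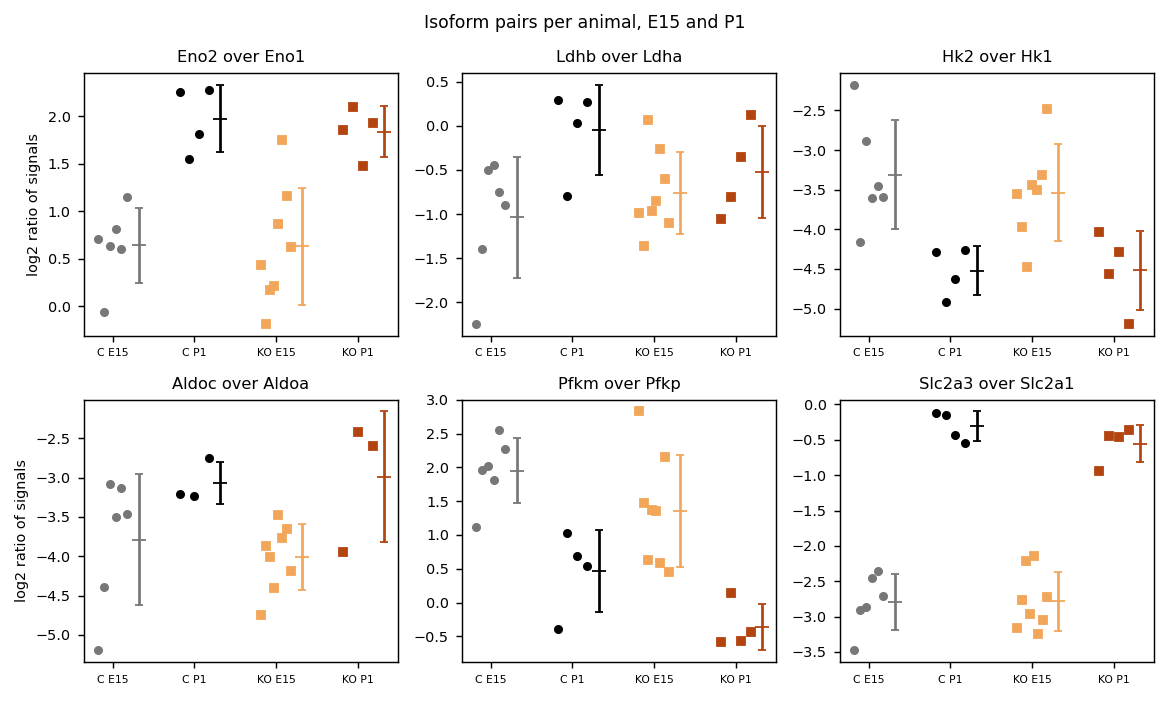
Log2 ratio of the signals of 6 isoform pairs (y axis) in every control (C) and knockout-labelled (KO) animal at E15 and P1; points are animals, and bars give the mean and SD. Slc2a3 over Slc2a1 separates the ages by about 2.49 in controls, and Ldhb over Ldha overlaps.

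The rest of the pathway was read with the same fit. Of 23 further glycolysis genes tested, 3 were called higher in controls and 1 lower, beside 17.0% and 16.3% of all features. The 3 were Aldoc, Slc16a1 at 0.84 (SE 0.08), a carrier of lactate and ketone bodies, and Hk3 at 0.79 (SE 0.21), a further hexokinase. Slc2a1 was the 1 called lower. In P1 controls 1 and 2, 21 of the 23 genes had a value. Hk3 had 0.61 (SE 0.21, adjusted p = 0.0628) in animals labelled knockout and was not called there. A further list held 13 genes of pyruvate handling: the mitochondrial pyruvate carrier, pyruvate dehydrogenase with its regulators, and citrate synthase. Of these 13, 3 were called higher and 2 lower, near the share of 33.3% called among all features. Mpc1, a subunit of the mitochondrial pyruvate carrier, rose by 0.69 (SE 0.13), and Pdha1 and Pdhb, subunits of pyruvate dehydrogenase, by 0.66 (SE 0.15) and 0.50 (SE 0.17). Pdk1 and Pdk3, kinases that switch that enzyme off, had -0.35 (SE 0.07) and -0.34 (SE 0.09). In animals labelled knockout, Gpi1, Aldoc and Slc16a1 were called higher among the glycolysis genes with Slc2a1 lower, and Pdha1 and Mpc1 were called higher among the pyruvate genes.

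**Figure D4:**
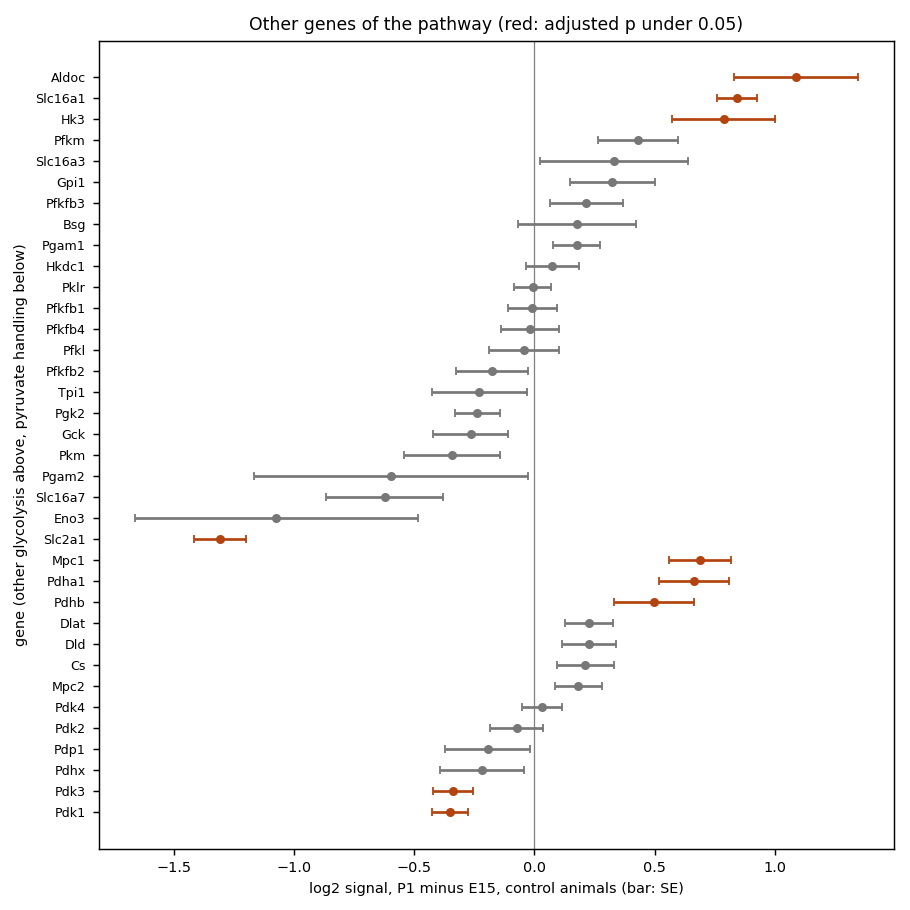
Change of log2 signal from E15 to P1 in control animals (x axis) for 23 further glycolysis genes and 13 genes of pyruvate handling (y axis), with SE bars; red marks an adjusted p under 0.05. Slc2a1 at -1.31 is the lowest called value and Aldoc at 1.09 the highest.

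Cell type markers moved over the same ages, where 17.0% of all features were called higher and 16.3% lower. In controls 7 of 9 neuron genes were called higher (median change 1.12), 6 of 8 astrocyte genes were called higher (median 0.92) and 6 of 10 progenitor genes were called lower (median -0.71). Of 13 hypoxia-responsive genes other than the members, 6 were called lower and 1 higher (median -0.27). Of 7 erythroid genes tested, 6 were called lower (median -0.86), and of 10 meninges genes 3 lower and 1 higher (median -0.81). Of 16 skeletal muscle genes 1 was called lower (median -1.07), and of 9 forebrain genes 2 lower and 1 higher (median -0.50). Of 8 hindbrain genes tested, 1 was called lower and 1 higher (median -0.26). Of 6 microglia genes 3 were called higher (median 0.32), and of 7 endothelium genes 1 lower and 1 higher (median -0.12). The part of these shifts in the changes of the members was not tested.

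Knockout over control was compared on the same arrays. Several E15 replicates share a control animal, so that counts of replicates above or below 0 are not over independent values. Replicates 1 and 4 share control 1, 1 and 7 control 6, 2 and 3 control 2, and 2 and 8 control 3. At E15 limma called 0 of 24135 features (1683 at an unadjusted p under 0.05), and at P1 0 of 24226 (2303 at an unadjusted p under 0.05), so 0% of features and 0 of 10 members were called at either age. For Pfkp the E15 replicates 1 to 8 had log2 ratios of -0.39, 0.76, 0.32, 0.04, 0.55, 1.43, 0.23 and 1.55. Of these, 7 of 8 lay above 0, with a mean change of 0.57 (SE 0.21, adjusted p = 0.709). At P1 its ratios were -0.24, 0.93, 1.12 and 1.15, with a change of 0.74 (SE 0.25, adjusted p = 0.493). The other Pfkp probes had 0.18 and 0.03 at E15, and 0.26 and 0.18 at P1.

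Ldha at E15 had ratios of -0.62, -0.28, -1.36, -1.28, -0.23, -0.45, -0.04 and 0.56, below 0 in 7 of 8 replicates. Its change was -0.46 (SE 0.21, adjusted p = 0.712), and it was -0.19 without replicates 3 and 4 and -0.30 without replicates 1 and 4. The median ratio of the muscle genes was lowest in replicate 4 (-3.22) and highest in replicate 8 (2.79), where Ldha was also highest. Ldha was lowest in replicate 3 (-1.36), where the muscle median was -0.70, and replicate 1 had a muscle median of -1.27 with Ldha at -0.62. The part of muscle RNA was not tested. At P1 Ldha had 0.08 (SE 0.08), while its second probe had ratios of -1.03, 0.01, -0.15 and -0.49, with a change of -0.41. By its brightest probe, Hk1 at E15 lay above 0 in all 7 replicates with a value, from 0.03 to 0.56. Its E15 change was 0.22 (SE 0.08, adjusted p = 0.709), and its P1 change 0.04. The P1 value rests on replicate 4 (0.85, against -0.13, -0.10 and -0.47 in the others) and was -0.23 without it. Other Hk1 probes had E15 changes of 0.05, 0.08, 0.04, -0.02 and 0.01. Their P1 changes, where tested, were -0.39, -0.29, -0.02 and -0.08.

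Slc2a3 at P1 had ratios of -0.68, -0.19, -0.42 and -0.03, below 0 in 4 of 4, with a change of -0.33 (SE 0.11, adjusted p = 0.493), and its E15 change was 0.03. No marker gene was called on the same P1 arrays. Below 0 lay 8 of 9 neuron genes (median -0.22) and 7 of 8 astrocyte genes (median -0.23), while 55% of all features lay above 0. In replicates 1 to 4 the neuron median was -0.53, -0.21, -0.09 and 0.15, and the astrocyte median -0.38, 0.11, -0.55 and 0.04. The median ratio of the forebrain genes was 0.86 and 0.96 in replicates 1 and 3, where Slc2a3 was lowest, and -0.56 and -0.30 in replicates 2 and 4, and the part of these in the Slc2a3 values was not tested. The remaining members, Hk2, Aldoa, Pgk1, Eno1, Eno2 and Ldhb, had changes from -0.11 (Pgk1) to 0.11 (Eno2) at E15 and from -0.39 (Ldhb) to 0.04 (Hk2) at P1. The 95% interval of the E15 change of Eno2 ran from -0.03 to 0.25. The test of the difference between the ages called 2 of 22922 features (0.00873%) and 0 of the 10 members, with Slc2a3 at -0.36 (SE 0.14, adjusted p = 0.953). A p above the threshold does not show equal levels.

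**Figure D5:**
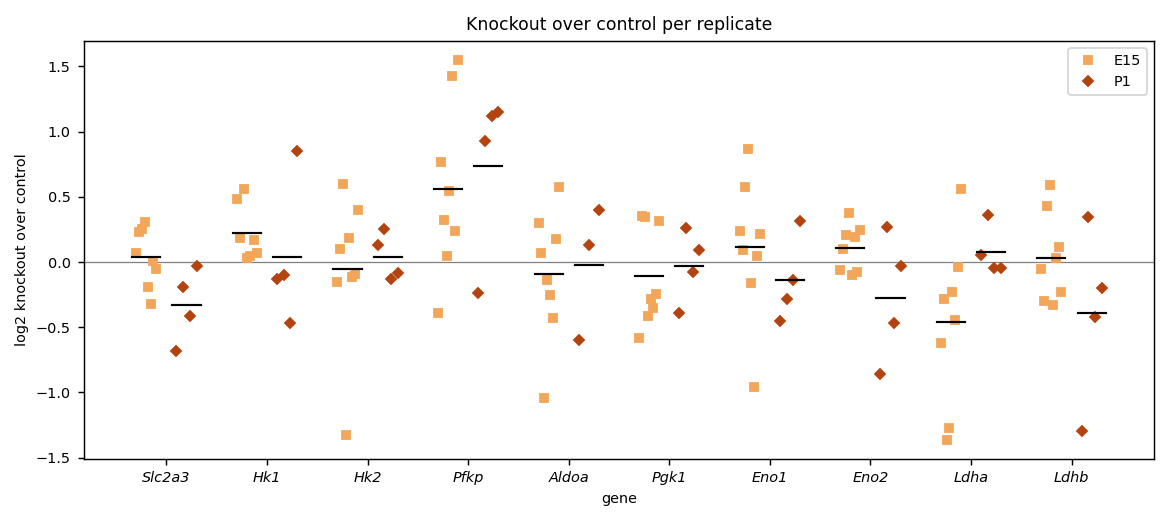
Log2 of knockout over control (y axis) per replicate for the 10 genes (x axis) at E15 (squares) and P1 (diamonds); short black lines are means. Pfkp lies above 0 in 7 of 8 replicates at E15 and in 3 of 4 at P1, and Ldha lies below 0 in 7 of 8 at E15.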

How the data were processed

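RNA was measured on 22 dual-colour Agilent arrays, and animals were grouped by the labels. The authors' deposited scanner tables give, per the file headers, mean and background intensity of each spot, a processed intensity and a log10 ratio of red over green, written by Feature Extraction 8.1.1.1 (E15) and 8.5.1.1 (P1). The deposited matrix holds the same log10 ratios within 0.005. Other steps are not given in the sources used here.

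Mean intensities were corrected by normexp (offset 50) and normalized by loess within arrays, with outlier spots set to missing. Ratios were turned to knockout over control and averaged per replicate, and values from 1 dye orientation had the mean dye effect subtracted. For levels, channels were separated after Aquantile normalization and averaged per animal. A gene was represented by its brightest probe, and features well above background in at least 50% of the channels of an age were kept. Of 41174 probes, 21445 were named by accession, 5431 by symbol and 4636 by synonym (GRCm38.p6 gene table), 1884 kept the file name, and 7778 had none. P1 files give accessions as names, so P1 probes were named through the probe ID.

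limma 3.58.1 in R 4.3.3 (statmod 1.5.0) tested animals or replicates, with a random block for E15 replicates that share control animals, and Benjamini-Hochberg adjustment over all features at 0.05. Isoform pairs were tested by exact permutation. The labels call the replicates biological. The fits were tested on simulated data. The genes named are the 10 members, their pair partners and, from 2 pathway lists, at most the 4 largest called genes per direction; marker lists are given as medians. A gene of the glycolysis list is not reported here. Members, lists and pairs were chosen with earlier results of these data known. Alternatives covered signals, offset, outliers, probes, filters, scaling, dyes, blocks and each left-out replicate.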

Additional observations from a re-analysis of the deposited data

Results flagged for a closer look

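In 90 groups of 4 to 10 values, 7 had 1 sample far from the others (7.78%), where chance flags about 1 in 20. Pgk1 in P1 control 2 had a log2 signal of 11.22 against 11.51 in the nearest animal. Hk2 in E15 replicate 4 had a knockout over control ratio of -1.33 against -0.15, and the muscle genes were also lowest there, at -3.22. Pfkp in P1 replicate 1 had -0.24 against 0.93. Slc2a3 over Slc2a1 was -0.94 in P1 knockout animal 1 against -0.46. In knockout over control, Eno2 over Eno1 was 1.15 in E15 replicate 6 against 0.06, and 0.55 in P1 replicate 2 against -0.33. Hk2 over Hk1 was -0.94 in P1 replicate 4 against 0.26.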

How the results depend on the processing

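Slc2a3, Pfkp and Eno2 were called higher in controls under all 22 alternatives, with changes of 0.54 to 1.53, 1.39 to 2.34 and 0.87 to 1.44. The cause of the changes below was not tested, except that the strict filter tests fewer features.

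Members called lower in controls numbered 2 with scanner processed signals, offset 16, the filter for every channel, median scaling or Cy3 alone (Hk2 and Ldha), and 1 with outlier spots kept or without the animals highest in muscle genes (Hk2). With a replicate left out they were 0 to 2. Features called in controls were 5460 with the strict filter, 5030 in Cy5 alone and 2811 with scan day as a block (74.5% of them higher, against 50.9% in the main fit and 37.0% with median scaling). In animals labelled knockout they were 3544 with the strict filter and 2306 with scan day as a block (82.1% higher, against 58.1%, 43.0% with median scaling and 47.8% with outlier spots kept). At E15, 1 feature was called with processed signals and 1 with deposited values, and 0 to 1 with a replicate left out. For the difference between the ages, 0 were called with processed signals, offset 16, outlier spots kept or the strict filter, 1 with the median over probes, 9 with no filter, and 0 to 19 with a replicate left out, the 19 without P1 replicate 4.

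With median scaling, Ldhb over Ldha was 1.00 (called), Aldoc over Aldoa 1.13 (called) and Hk2 over Hk1 -0.86 (not called). In Cy3 alone Ldhb over Ldha was 0.92 (called). In Cy5 alone Eno2 over Eno1 was 0.96, Hk2 over Hk1 -1.20 and Pfkm over Pfkp -1.72 (none called). Hk2 over Hk1 ran from -1.38 to -0.98 with an animal left out.

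Signs turned as follows, in values that were not called either way. In controls with median scaling, Aldoa was -0.41, Pgk1 -0.41 and Ldhb -0.26, and Eno1 was 0.073 in Cy5 alone. In animals labelled knockout, Aldoa was -0.33 and Pgk1 -0.25 with median scaling, Pgk1 -0.019 in Cy3 and Ldhb 0.010 in Cy5. At E15 without replicates 3 and 4, Slc2a3 was -0.054, Hk2 0.052, Aldoa 0.049, Eno1 -0.12 and Ldhb -0.13. Without replicates 1 and 4, chosen after seeing the data, Slc2a3 was -0.010, Hk2 0.18, Pgk1 0.024, Eno1 -0.028 and Ldhb -0.048. With scan day as a block Hk2 was 0.022 and Ldhb -0.0023, and with no dye effect subtracted Ldhb was -0.084. At P1, Aldoa was 0.024 and Pgk1 0.0077 with processed signals, and 0.024 and 0.0075 with deposited values, and Hk1 was -0.11 and Ldha -0.17 with the median over probes. For the difference between the ages, Aldoa was -0.12 with the median over probes. With a replicate left out, the ranges that crossed 0 were, at E15, Aldoa -0.20 to 0.032, Eno1 -0.020 to 0.26, Hk2 -0.13 to 0.12, Ldhb -0.053 to 0.082 and Slc2a3 -0.013 to 0.088, and at P1 Aldoa -0.23 to 0.27, Hk1 -0.23 to 0.21, Hk2 -0.027 to 0.099, Ldha -0.013 to 0.12 and Pgk1 -0.13 to 0.093. For the difference between the ages they were Aldoa -0.13 to 0.37, Hk2 -0.076 to 0.16 and Pgk1 -0.010 to 0.21, and for age in animals labelled knockout Ldhb -0.21 to 0.25.

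Replicate numbers did not pair E15 with P1 animals (correlations of -0.12, -0.08, 0.12 and 0.15). With the replicate block, 0 features were called for the difference between the ages, and Aldoa was -0.096. Scan day could not be fitted at P1, which was scanned on 1 day.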
